A study of Mus musculus with 24 samples.

Results

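The nuclear genes of oxidative phosphorylation were taken as the genes whose mouse symbol begins with Nduf, Uqcr, Cox4 to Cox8 or Atp5, together with Sdha, Sdhb, Sdhc and Sdhd. The rule found 92 genes among the 17501 genes of the mouse embryonic stem cell (mESC) table and 90 among the 16024 genes of the neural progenitor cell (NPC) table. Cox7b2 and Cox8c were present in mESC alone. By complex, 38 genes belonged to complex I, 8 were Ndufaf assembly factors of complex I, 4 belonged to complex II, 8 to complex III, 18 to complex IV (16 in NPC) and 16 to complex V. Ndufa4 and Ndufa4l2 were counted with complex I by their symbols, although their proteins associate with complex IV.

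The study sequenced RNA from 24 libraries, 12 per cell type, with 2 biological samples for each of 6 Htt genotypes. The genotypes were wild type (WT), Htt knockout (KO) and 4 knock-in lines with CAG repeats in Htt, named Q20, Q50, Q92 and Q111 for the repeat length. Htt, also called Hdh, encodes huntingtin, and its expanded CAG repeat causes Huntington's disease. The knock-in lines are heterozygous, so each keeps an unmodified allele, and the labels name a single line for each repeat length. A difference between lengths therefore cannot be told apart from a difference between lines. The length of the Q92 line is 92 in the titles and 89 in the growth protocol. The mESC were grown with leukemia inhibitory factor on irradiated mouse fibroblasts, and the NPC were derived from mESC in N2B27 medium and kept with FGF and EGF on laminin. The series title concerns repeat length and RNA splicing, and the tables hold a value per gene and library.

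Oxidative phosphorylation makes ATP in the inner mitochondrial membrane. Complexes I and II pass electrons from NADH and succinate to ubiquinone, complex III passes them to cytochrome c and complex IV to oxygen, and complex V, the ATP synthase, uses the resulting proton gradient. Most subunits are encoded in the nucleus, and their genes are known targets of the transcription factors Nrf1, Yy1 and those of the ETS family. Pluripotent stem cells lean on glycolysis, and neural differentiation is known for a greater use of respiration.

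Promoters are shown for genes that changed in several NPC comparisons below and for Sdha, whose promoter held the most Nrf1 words. RefSeq (GRCm38.p6) gave a promoter of 300 bases, from 250 before to 50 after the start, for 76 of the 92 genes. Capitals mark the Nrf1 word, GCGCN directly followed by TGCGC, with all words searched on both strands. Ndufa5 (an accessory subunit of complex I, chr6:24527477-24527776, minus strand), Ndufaf4 (an assembly factor, chr4:24897833-24898132, plus strand), Sdha (chr13:74350191-74350490, minus strand), Cox7a1 (chr7:30183921-30184220, plus strand) and Cox6b2 (chr7:4753045-4753344, minus strand) read as follows, 5′ to 3′.
Ndufa5: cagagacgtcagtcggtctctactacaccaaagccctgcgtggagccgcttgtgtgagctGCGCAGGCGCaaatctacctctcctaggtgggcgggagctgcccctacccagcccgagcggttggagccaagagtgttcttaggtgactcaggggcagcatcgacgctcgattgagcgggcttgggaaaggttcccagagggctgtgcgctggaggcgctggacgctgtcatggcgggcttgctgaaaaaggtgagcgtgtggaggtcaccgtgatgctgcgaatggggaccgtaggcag
Ndufaf4: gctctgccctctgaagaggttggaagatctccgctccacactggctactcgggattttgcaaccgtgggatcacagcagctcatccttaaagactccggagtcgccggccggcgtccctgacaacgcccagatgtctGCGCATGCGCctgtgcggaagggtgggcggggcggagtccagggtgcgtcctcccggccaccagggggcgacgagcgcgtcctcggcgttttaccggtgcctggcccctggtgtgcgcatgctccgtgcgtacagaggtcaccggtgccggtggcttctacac
Sdha: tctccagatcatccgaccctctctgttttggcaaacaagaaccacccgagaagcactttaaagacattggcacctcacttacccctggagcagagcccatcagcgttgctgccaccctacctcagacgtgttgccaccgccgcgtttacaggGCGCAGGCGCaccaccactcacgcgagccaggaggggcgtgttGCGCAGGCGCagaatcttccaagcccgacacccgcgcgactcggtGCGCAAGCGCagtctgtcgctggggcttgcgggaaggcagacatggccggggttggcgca
Cox7a1: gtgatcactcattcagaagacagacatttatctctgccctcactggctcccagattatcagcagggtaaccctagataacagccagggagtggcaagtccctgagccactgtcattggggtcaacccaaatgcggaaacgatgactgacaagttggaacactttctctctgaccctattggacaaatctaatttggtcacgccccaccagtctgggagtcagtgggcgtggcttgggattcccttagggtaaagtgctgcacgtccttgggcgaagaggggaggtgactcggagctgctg
Cox6b2: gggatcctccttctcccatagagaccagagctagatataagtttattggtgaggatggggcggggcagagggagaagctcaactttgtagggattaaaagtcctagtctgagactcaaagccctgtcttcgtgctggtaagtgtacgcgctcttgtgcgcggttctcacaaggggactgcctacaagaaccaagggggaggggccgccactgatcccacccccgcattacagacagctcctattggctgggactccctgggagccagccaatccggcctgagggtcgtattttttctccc
Ndufa5 and Ndufaf4 each held 1 Nrf1 word and Sdha held 3, while the windows of Cox7a1 and Cox6b2 held none. The Nrf1 word was present in 18 of the 76 promoters (23.7%), against 8.14% of the 13915 promoters of genes in either table. The ETS word CCGGAAG was present in 17 (22.4%, against 14.4%) and the Yy1 word AAGATGGC in 10 (13.2%, against 3.74%). No word contains another, and at least 1 of the 3 was found in 39 of the 76. A match describes the letters of the window and not a bound site.

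The deposited values are a normalised signal on the CPM scale, in which reads are set against the depth of the library. A test required a value of at least 1 in 2 or more of a cell type's libraries, which 89 of the 92 genes passed in mESC (Cox8b, Cox6a2 and Cox8c did not) and 87 of 90 in NPC (Cox4i2, Cox8b and Ndufa4l2 did not). Together the genes took 1.26% to 1.43% of a library's total in mESC and 1.19% to 1.49% in NPC. Per kilobase of exon, the highest mean values over the 12 mESC libraries belonged to Atp5b (621) and Atp5a1 (531), the catalytic subunits of ATP synthase, and to Cox4i1 (253). In NPC the order of the first 3 was Atp5a1 (493), Atp5b (484) and Cox6b1 (393). The lowest were Cox6a2 (0.129) in mESC and Cox4i2 (0.0838) in NPC, both isoforms known from restricted tissues or conditions. Levels were not compared between the cell types, whose tables were scaled separately.

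The targeted gene did not follow its label in every library. In mESC, Htt was 124 and 113 in the WT libraries, 139 in the library labelled KO 1 and 68.5 in the library labelled KO 2. In NPC it was 137 and 177 in WT and 100.1 and 94.9 in KO (log2 change -0.67 ± 0.14 (SE), limma adjusted p 0.0673). Depth was 58546211 to 81502284 recovered reads per mESC library and 48525333 to 118038952 per NPC library. Pou5f1, which defines pluripotent cells, was 280 to 880 in the mESC libraries. In NPC it was 90.1 and 87.4 in the Q20 libraries and at most 0.405 in the other 10. The summed level of the 4 pluripotent markers in the NPC table was 107 and 106 in Q20 and 4.72 to 26.5 elsewhere. Nanog, of the same list, was 13.0 and 13.7 in Q20 and at most 1.63 elsewhere, but Esrrb (0.721 and 0.750 in Q20, 0.723 to 7.74 elsewhere) and Klf4 (3.19 and 3.83, against 2.19 to 18.5) were not high in Q20. The summed level of the 8 neural progenitor markers was 2609 and 2745 in Q20 against 4465 to 7153 elsewhere. The 6 fibroblast markers summed to 454 and 438 in Q20, 1052 and 1015 in Q50, 7.36 and 9.71 in Q92, 98.2 and 99.1 in Q111, 299 and 117 in WT and 128 and 82.0 in KO. Most of the WT, KO and Q111 sums came from Pdgfra (264 and 89.8 in WT, 95.6 and 96.7 in Q111). Col3a1 was 240 and 194 in Q20, 608 and 630 in Q50, 24.0 and 21.8 in WT and 1.31 and 1.28 in Q111. Col1a2 was 25.4 to 159 in Q20 and Q50 and at most 0.631 elsewhere. The 5 astrocyte markers summed to 1942 and 1946 in Q20, 2484 and 2352 in Q50, 787 and 821 in Q92, 1109 and 1126 in Q111, 2926 and 1888 in WT and 1916 and 1072 in KO. Slc1a3 (778 to 2741) made up most of each sum. Aqp4 (253 and 247) and Aldh1l1 (235 and 215) were highest in Q20, with at most 102 and 138 elsewhere. Gfap (43.1 and 27.8 in Q20, up to 72.9 in Q50) and S100b (11.7 and 9.27 in Q20, up to 24.2 in KO) were not. These values stand beside each NPC comparison below, and their part in those results was not tested. Fewer cells of a type and less RNA per cell cannot be told apart in such libraries.

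Over the 12 libraries of a cell type, the median deviation of each respiratory complex from its gene means stayed between -0.31 and 0.29. On the log2(value + 1) scale, the median deviation of all tested members from their own gene means ran from -0.12 to 0.11 over the mESC libraries and from -0.14 to 0.13 over the NPC libraries. The median SD between libraries of the same genotype was 0.24 for the members and 0.36 for all genes tested in mESC, and 0.20 against 0.25 in NPC. The members and all genes were not matched for level. The widest range in mESC was that of complex I assembly factors, from -0.31 (Q20 replicate 2) to 0.29 (Q111 replicate 1). In NPC the lowest medians belonged to WT replicate 1, with -0.29 for assembly factors, -0.28 for complex V and -0.26 for complex III, where WT replicate 2 stood at 0.15, 0.12 and 0.11. The NPC WT libraries therefore lay on opposite sides of the mean in all 3.

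**Figure D1:**
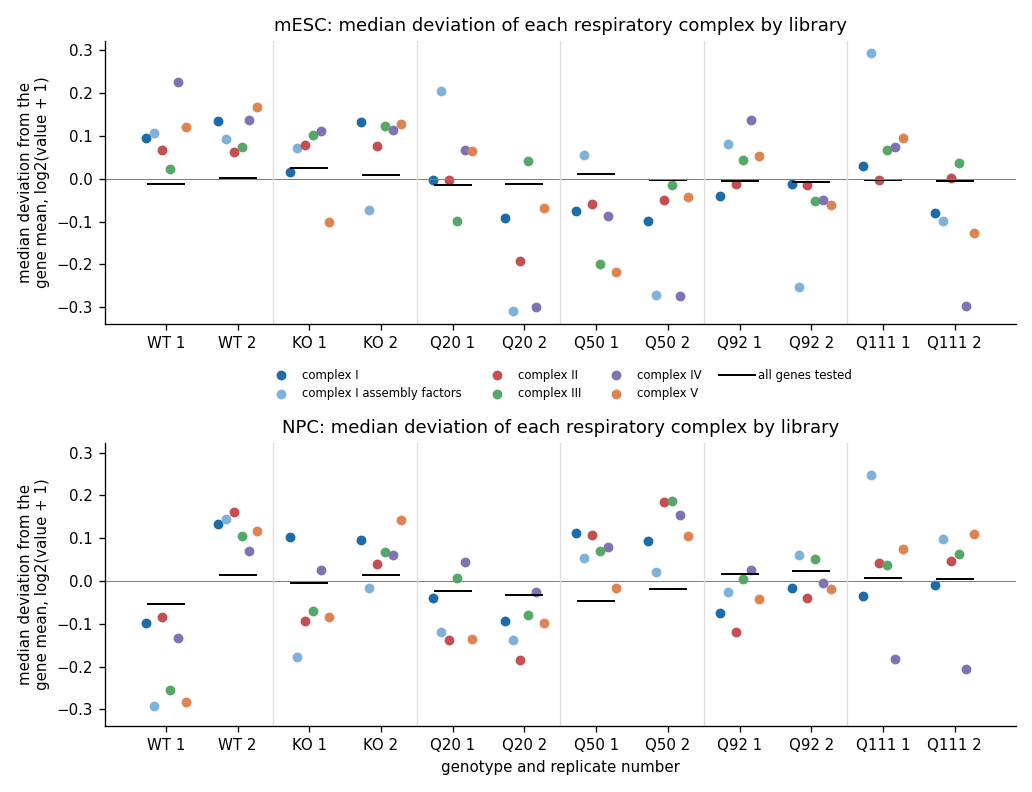
Median deviation of each respiratory complex from its gene means, in log2(value + 1), for the 12 libraries of mESC (top) and NPC (bottom); each coloured point is the median over the tested genes of a complex and the black bar the median of all genes tested. Most points lie within 0.3 of 0, and NPC WT replicate 1 has the lowest points for assembly factors, complex III and complex V.

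In mESC, no member was called between genotypes by limma at an adjusted p of 0.05 in the fit without the replicate number as a block. The comparisons were KO against WT (0.0144% of all genes tested were called), Q20 against WT (0.323%), Q50 against Q20 (0.00719%), Q92 against Q20 (0.00719%), Q111 against Q20 (0%), the trend with CAG length (0%) and any difference among the knock-in lines (0.0719%). In the same order 3, 6, 6, 4, 0, 1 and 4 of the 89 members had an unadjusted p under 0.05, and edgeR on the recovered reads also called 0 in each. Of all 13916 genes tested, 553, 1716, 887, 747, 374, 358 and 842 had an unadjusted limma p under 0.05. The median change of the members was -0.07 for KO against WT and -0.17 for Q20 against WT, where the medians of all genes tested were 0.01 and -0.04.

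Several mESC members had differences of more than 1 on the log2 scale without passing the test. Sdhc, which anchors complex II in the membrane, was 64.0 and 139 in WT and 199 and 185 in the libraries labelled KO, a change of 1.02 ± 0.30 (SE) with a limma adjusted p of 0.985. The groups did not overlap, and the WT libraries themselves differed 2.18-fold. Ndufa10, an accessory subunit of complex I, was 114 and 108 in WT and 156 and 202 in the libraries labelled KO (0.68). Both Sdhc and Ndufa10 lie on chromosome 1. Its other tested genes had a median change of 0.30 for KO against WT in mESC, the highest of 20 chromosomes. The part of this shift in the values of Sdhc and Ndufa10 was not tested. Ndufaf4 was 12.0 and 13.1 in Q20 and 50.3 and 46.1 in Q92, a change of 1.86 ± 0.37 (SE, limma adjusted p 0.314). Its Q92 libraries were the highest of the 12. Other members with the smallest p were Ndufab1 for Q92 against Q20 (0.67), Ndufa1 (-0.70) and Cox5b (0.58) for Q50 against Q20, Ndufaf2 (-0.82) and Uqcrq (0.65) for Q111 against Q20, and Ndufaf2 (-0.94) and Atp5d (0.70) for the trend over 91 repeats. For any difference among the knock-in lines they were Ndufaf4 and Cox7b2.

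Replicate numbers paired the mESC libraries across genotypes, and with the replicate as a block 3 members were called for Q20 against WT, where 10.6% of all genes were. Cox6b2, a complex IV isoform known from testis, was 29.4 and 19.6 in WT and 11.6 and 8.27 in Q20, and it fell by 1.21 on the log2 scale (limma adjusted p 0.0131 with the block). Ndufb7, a complex I subunit on chromosome 8, was 48.9 and 38.8 in WT and 96.9 and 88.3 in Q20, and it rose by 1.07 (limma adjusted p 0.0393 with the block). Ndufaf7, an assembly factor that methylates a complex I subunit, rose by 0.51 (limma adjusted p 0.0468 with the block). In both genes named first the WT and Q20 libraries did not overlap. Markers also differed between these libraries. Col1a2 was 0.808 and 1.95 in WT and 25.1 and 31.4 in Q20, but Pdgfra was 27.95 and 18.1 against 4.12 and 8.50. The 8 neural progenitor markers summed to 106 and 175 in WT and 301 and 476.5 in Q20. The 7 pluripotent markers summed to 2535 and 2951 in WT and 1726 and 1651 in Q20. The part of these marker levels in the calls was not tested. The block also called Cox6b2 for Q50 against Q20 (1.19, limma adjusted p 0.0415, 0.984% of all genes) and Ndufaf7 among the knock-in lines (limma adjusted p 0.0481, 1.6% of all genes).

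More mESC members were called between the replicate numbers than between genotypes, but the tests were unlike. The replicate test set 6 libraries against 6 (median SE of a member 0.096). Each pair of genotypes set 2 against 2, without the block in the main fit (0.245 for Q20 against WT). Of the 89 members, 29 differed between replicates 2 and 1 over the 6 genotypes, 9 higher and 20 lower in replicate 2, where 43.3% of all genes tested were called (20.5% higher and 22.8% lower). In NPC none of 87 members differed between the numbers (0% of all genes), with 4 at an unadjusted p under 0.05 (816 of all 13206 genes tested) and 0 called by edgeR. Ndufa4l2, an isoform of Ndufa4 known to be induced in hypoxia, was 5.90 to 24.6 in the replicate 1 libraries and 1.24 to 2.36 in replicate 2 and fell by 2.75 (SE 0.33, limma adjusted p 0.000633). Atp5s, a factor associated with ATP synthase, was 8.90 to 20.2 in replicate 1 and 3.86 to 6.21 in replicate 2 and fell by 1.19 (limma adjusted p 0.00389). Both replicates were apart in every genotype for these genes. Complex IV gave only falls, in 5 of 15 members tested: Cox4i2, Cox6b2, Cox6c, Cox7b and Cox7c. Cox4i2, another isoform tied to hypoxia, was 1.54 to 3.21 in replicate 1 and 0.521 to 1.43 in replicate 2 (-0.64, limma adjusted p 0.0103).

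Other members were higher in replicate 2. Ndufb10, a complex I membrane-arm subunit, rose by 0.73 (SE 0.08, limma adjusted p 0.000359), from 37.6 to 46.4 in replicate 1 to 66.8 to 84.7 in replicate 2. Atp5g1 and Atp5g3, which encode the same c-subunit of the ATP synthase ring, rose by 0.62 (limma adjusted p 0.00297) and 0.50 (limma adjusted p 0.00132), and their shared partner Atp5g2 was not called. Ndufa11 rose by 0.38 (limma adjusted p 0.00133). In complex III, Uqcr11 and Uqcrc1 rose by 0.31 each (limma adjusted p 0.00669 and 0.0151). Complex II had no call among its 4 genes. Of the 29 calls, 22 held in each of the 12 fits that left out 1 library. The other 7 (Cox6c, Cox7c, Atp5e, Ndufs4, Ndufb3, Ndufa10 and Ndufaf3) lost the call in at least 4 of these fits, with adjusted p values up to 0.133. The mitochondrial ribosome, which makes the subunits encoded in mitochondrial DNA, had 33 genes higher and 1 lower of 78 in replicate 2. The labels do not say what a replicate number stands for. The summed level of the 8 neural progenitor markers was 106 to 301 in the replicate 1 libraries and 175 to 520.2 in replicate 2, higher in replicate 2 in all 6 genotypes. Of that list, Vim and Pax6 were higher in replicate 2 in all 6 genotypes. Fabp7 was 0.152 to 0.326 in replicate 1 and 6.25 to 69.3 in replicate 2 of the knock-in lines, but 18.5 and 0 in the libraries labelled KO and 0.0824 and 0.0885 in WT. Nes was lower in replicate 2 in Q20 (158 and 123) and Q111 (88.2 and 71.8), and Sox1 was 21.9 and 0 in the libraries labelled KO. The pluripotent markers Pou5f1 (421 and 880 in WT), Klf4 and Zfp42 and the neuron marker Tubb3 were also higher in replicate 2 in all 6 genotypes, while Dppa5a was lower in all 6. The summed level of the 7 pluripotent markers was higher in replicate 2 in 4 of 6. The part of these marker levels in the replicate difference was not tested.

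**Figure D2:**
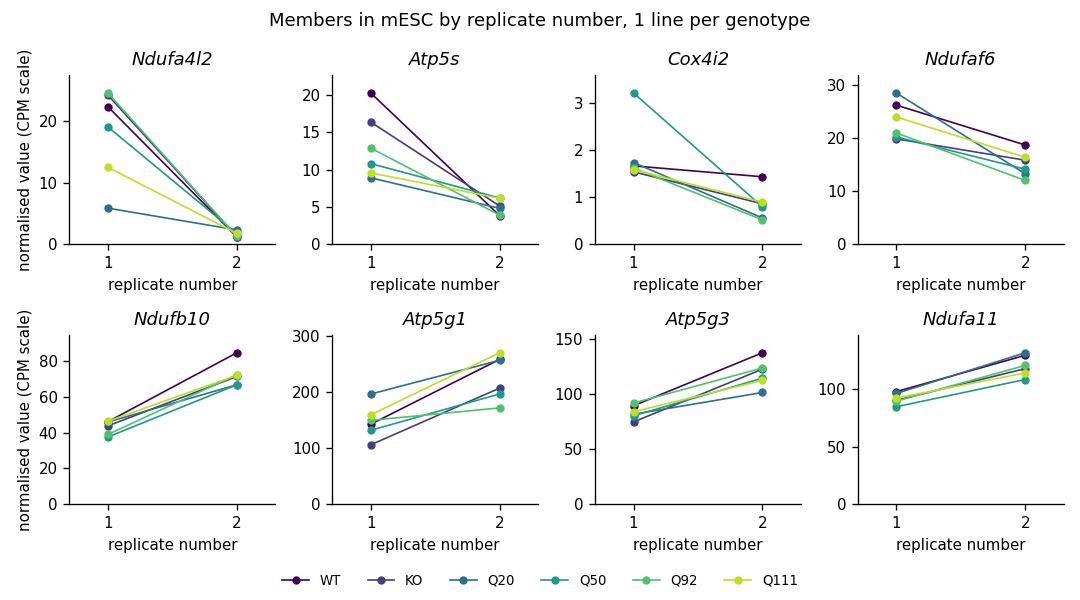
Normalised value (CPM scale, linear axis from 0) of 8 members in mESC against replicate number, with 1 line per genotype joining its 2 libraries. All lines of the upper 4 genes go down and all lines of the lower 4 genes go up from replicate 1 to 2.

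In NPC, KO against WT called none of 87 members (1.42% of all genes tested were called), while 8 had an unadjusted p under 0.05 and edgeR called 0. Of all 13206 genes tested, 1755 had an unadjusted limma p under 0.05. The median change was 0.08, against 0.03 for all genes. Ndufa10 was 174 and 185 in WT and 268 and 248 in KO (0.52 ± 0.11 (SE), limma adjusted p 0.0776). Ndufb7 was 48.5 and 44.6 in WT and 78.2 and 99.6 in KO (0.91 ± 0.25 (SE), limma adjusted p 0.152). The KO libraries lay above both WT libraries for both genes. Leaving out 1 library of either group at a time moved the median change of the members to between -0.11 and 0.23.

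For Q20 against WT in NPC, 2 members were called, 1 higher and 1 lower, where 14.5% of all genes were (9.97% higher and 4.57% lower). Cox7a1, the heart and muscle isoform of a complex IV subunit, was 1.79 and 1.30 in WT and 3.38 and 2.88 in Q20 and rose by 0.70 (SE 0.15, limma adjusted p 0.0174). Ndufa12, an accessory subunit of complex I, was 97.9 and 132 in WT and 40.4 and 39.6 in Q20 and fell by 1.48 (SE 0.40, limma adjusted p 0.0427). The groups did not overlap in either gene. Neither call held in all of the 4 fits without 1 library: Ndufa12 was lost in each (adjusted p 0.0511 to 0.165) and Cox7a1 in 2 (up to 0.116). Quantile normalization, edgeR and a fit of the libraries of both groups alone also ended both calls (adjusted p 0.0539 to 0.367), as did a mean of at least 5 for Ndufa12 (0.0647) and a pseudocount of 0.1 for Cox7a1 (0.0532). Of Ndufa12's transcript, 22% of the 75-base stretches were shared with the annotated gene Gm15920, so its reads are uncertain.

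Against Q20, 7 of 87 members were called in Q50 (18.8% of all genes), 5 in Q92 (25.8%) and 8 in Q111 (28.3%). In each of the 3 comparisons the members' share, 8.05%, 5.75% and 9.2%, was under that of all genes. The direction was mixed: 5 higher and 2 lower in Q50 (all genes 8.05% higher and 10.7% lower), 2 and 3 in Q92 (9.88% and 15.9%), and 4 and 4 in Q111 (12.2% and 16.1%). The median changes of the members were 0.16, 0.02 and 0.05, against -0.00197 for Q50, 0.06 for Q92 and 0.03 for Q111 over all genes tested. Quantile normalization moved the split to 2 higher and 10 lower in Q92 (24.6% of all genes called) and to 4 higher and 14 lower in Q111 (27.1%), and the medians to -0.13 and -0.18. The 3 comparisons share the Q20 libraries, which carry the marker differences given above. Set against WT instead, 0 members were called in Q50 (6.62% of all genes), 2 in Q92 (8.66%) and 7 in Q111 (16.6%).

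Ndufa5 was the only member called in all 3 comparisons with a rise in each. It was 34.3 and 33.0 in Q20, 61.5 and 66.5 in Q50, 59.4 and 55.5 in Q92 and 78.8 and 72.3 in Q111, while WT stood at 47.0 and 45.8 and KO at 53.8 and 67.2. The Q20 libraries were the lowest of the 12 and the Q111 libraries the highest. It rose by 0.91 in Q50 (SE 0.14, limma adjusted p 0.00298), by 0.76 in Q92 (limma adjusted p 0.00607) and by 1.14 in Q111 (limma adjusted p 0.0008). In mESC its values were 20.8 to 51.8, with no call between genotypes.

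Of the other complex I genes, Ndufs1, the largest core subunit, which carries iron-sulfur clusters, was 213 and 211 in Q20 and 350.3 and 352 in Q50 and rose by 0.73 (limma adjusted p 0.00351). Ndufa10 was 156 and 140.0 in Q20 and 232 and 246 in Q50 and rose by 0.69 (limma adjusted p 0.00349). Ndufv3, a small subunit of the NADH-oxidizing module, was 106 and 102 in Q20 and 49.3 and 51.0 in Q111 and fell by 1.03 (limma adjusted p 0.01). Its Q111 libraries were the lowest of the 12. Ndufab1, the mitochondrial acyl carrier protein, was 40.6 and 32.1 in Q20 and 67.2 and 68.2 in Q111 and rose by 0.89 (limma adjusted p 0.0352). Of the 7 core subunits of complex I, Ndufs1 was the only call in these 3 comparisons.

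Of the assembly factors, Ndufaf4 was 13.0 and 11.01 in Q20, 17.0 and 25.1 in Q92 and 21.3 and 26.3 in Q111. It rose by 0.74 in Q92 (SE 0.23, limma adjusted p 0.0489) and by 0.93 in Q111 (limma adjusted p 0.0211). The Q92 call held in 2 of 9 other settings, and the adjusted p was 0.0530 to 0.0713 in 6 of the others and 0.944 with WT as the reference. Ndufaf7 was 28.9 and 23.4 in Q20 and 15.7 and 17.6 in Q92 and fell by 0.61 (limma adjusted p 0.0422, or 0.0547 with the replicate block). In all 3 contrasts the groups did not overlap.

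Complex II and complex III had 1 call each. Sdhc was 172 and 168 in Q20 and 272 and 289 in Q50 and rose by 0.72 (SE 0.19, limma adjusted p 0.0358), while it was 146 and 160 in Q92 and 155 and 167 in Q111. Over the 12 NPC libraries Sdha, which oxidizes succinate, ran from 307 to 387, and Sdhb, the iron-sulfur subunit, from 168 to 240. Sdhd, the other membrane anchor, ran from 51.0 to 117, with the highest value in WT replicate 1. In mESC, Sdha was 241 to 337, Sdhb 139 to 195, Sdhc 64.0 to 199 and Sdhd 49.5 to 61.4. Uqcrh, the hinge subunit of complex III, was 118 and 119 in Q20 and 88.7 and 90.7 in Q111 and fell by 0.40 (limma adjusted p 0.0354).

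In complex IV the calls fell on minor isoforms and on Cox5b and Cox4i1. Cox7a1 was 3.38 and 2.88 in Q20, 1.84 and 1.47 in Q50, 0.396 and 0.500 in Q92 and 1.02 and 0.851 in Q111. It fell by 0.64 in Q50 (limma adjusted p 0.0217), by 1.51 in Q92 (limma adjusted p 0.000224) and by 1.10 in Q111 (limma adjusted p 0.00147), and WT lay at 1.79 and 1.30, between Q20 and Q111. Set against WT, its Q50 value turned to 0.06. The Q50 call was also lost with a pseudocount of 0.1 (adjusted p 0.0648), quantile normalization (0.154) and edgeR (0.0993). Cox6b2 was 14.3 and 12.9 in Q20, 4.82 and 5.46 in Q50, 9.79 and 12.1 in Q92 and 1.63 and 1.49 in Q111. It fell by 1.25 in Q50 (limma adjusted p 0.0184) and by 2.52 in Q111 (SE 0.29, limma adjusted p 0.000506), the largest change of any member in these 3 comparisons. Cox5b was 154 and 134 in Q20 and 222 and 210.0 in Q50 and rose by 0.58 (limma adjusted p 0.02). Cox4i1, the common isoform of its subunit, was 448 and 444 in Q20 and 313 and 344 in Q92 and fell by 0.44 (limma adjusted p 0.0431). In complex V, Atp5g1 was 101 and 75.3 in Q20 and 219.9 and 176 in Q111 and rose by 1.17 (SE 0.28, limma adjusted p 0.0171). The Q111 libraries held the highest Atp5g1 values of the 12.

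**Figure D3:**
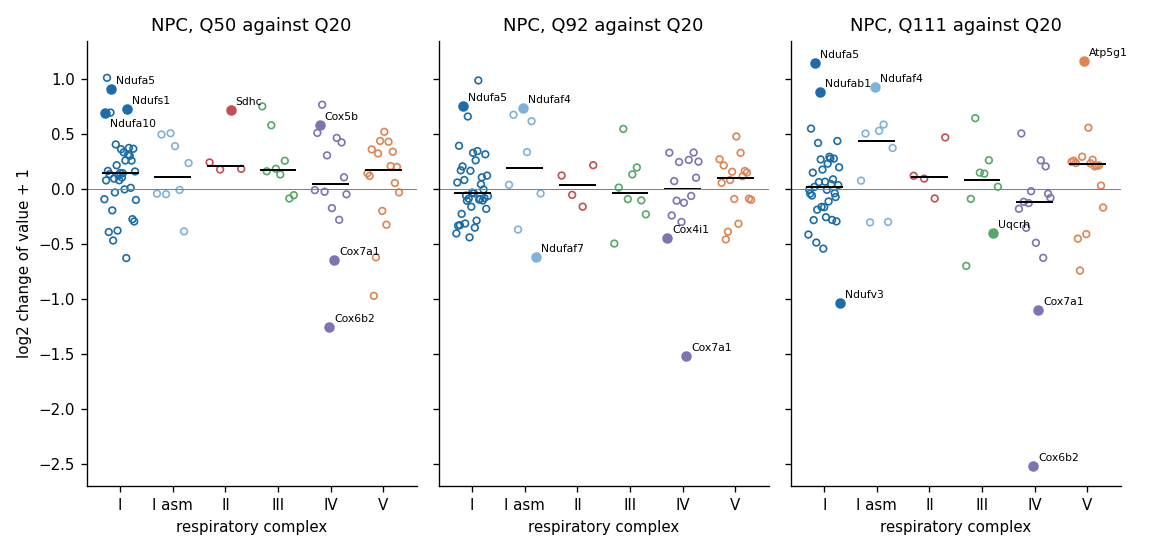
Log2 change of value + 1 in NPC for each tested member, by respiratory complex (I asm, assembly factors), in Q50, Q92 and Q111 against Q20; filled and named points passed limma at an adjusted p of 0.05, open points did not, and black bars are medians. Ndufa5 lies above 0 and Cox7a1 below 0 in all 3 panels, and Cox6b2 is the lowest point in Q111 at -2.52.

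**Figure D4:**
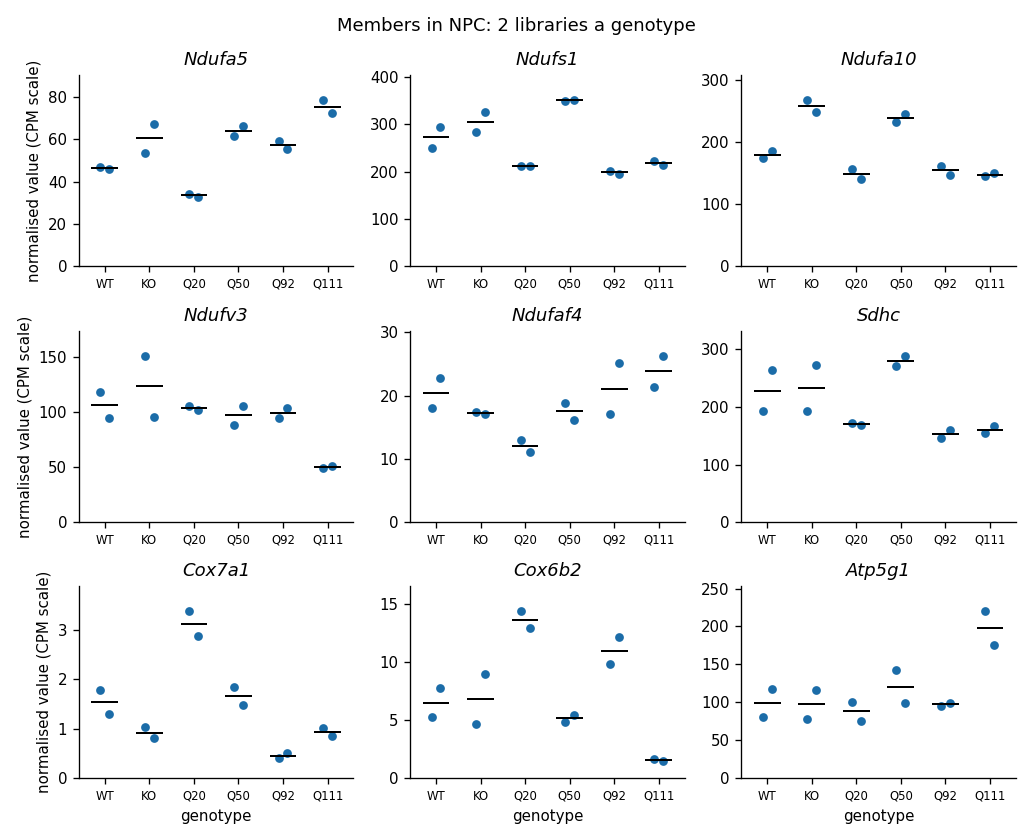
Normalised value (CPM scale, linear axis from 0) of 9 members in the 12 NPC libraries by genotype; points are the 2 libraries and the bar is their mean. Ndufs1, Ndufa10 and Sdhc share a pattern with high Q50 values, and Cox6b2 is lowest in Q111.

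Ndufa5, Ndufs1 and Ndufa10 in Q50, Cox7a1 in Q92, and Ndufa5, Cox6b2 and Cox7a1 in Q111 kept their calls in each of the 4 fits that left out 1 library. In those fits Q50 lost Cox6b2, Sdhc, Cox5b and Cox7a1 in each (adjusted p up to 0.157), Q92 lost Ndufaf7 and Cox4i1 in each (up to 0.232), and Q111 lost Ndufaf4, Ndufab1 and Uqcrh in each (up to 0.17). Ndufa5 in Q92, Ndufaf4 in Q92, and Atp5g1 and Ndufv3 in Q111 held in 3, 1, 1 and 1 of the 4. With WT as the reference, no Q50 call against Q20 held, Cox7a1 alone held in Q92, and Ndufa5, Ndufv3, Cox6b2 and Atp5g1 held in Q111.

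The members that rose in Q50 lay mostly on chromosome 1, where genes of other functions were higher as well. Chromosome 1 carried 6 members, Ndufs1, Ndufa10, Sdhc and Cox5b among them. All 6 were above 0 in NPC Q50 against Q20 with a median change of 0.64, and 4 of them were called. The 770 other tested genes of chromosome 1 had a median change of 0.53 there, 77.8% of them were above 0 and 30.9% were called higher. The medians of the 17 chromosomes other than 1, 8 and 11 ran from -0.08 to 0.08. In single libraries, the median deviation of the other chromosome 1 genes was 0.23 and 0.26 in Q50, 0.25 and 0.28 in KO, 0.12 and 0.13 in WT, -0.26 and -0.25 in Q20, and -0.19 to -0.20 in Q92 and Q111. The mESC libraries of the same lines showed the same order for KO, Q50 and Q20: 0.36 and 0.26 in the libraries labelled KO, 0.21 and 0.17 in Q50 and -0.15 in both Q20 libraries.

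With the median of each chromosome taken out of each library, an alternative added after these values were seen, Ndufs1 was 0.23 higher in NPC Q50 (limma adjusted p 0.22), Ndufa10 0.19 (0.293), Sdhc 0.22 (0.493) and Cox5b 0.09 (0.738). None of the 4 was then called, and 3 members of the comparison were (16.7% of all genes): Ndufa5, Cox6b2 and Cox7a1, all on other chromosomes. Chromosome 8 showed the like for WT. Its 705 other tested genes had a median of 0.45 for NPC KO against WT and 0.28 for Q20 against WT, with single WT libraries at -0.32 and -0.22. Its 3 members, Cox4i1, Ndufa13 and Ndufb7, had a median of 0.50 for KO against WT, and all 3 were above 0. In mESC the other chromosome 8 genes had a median of 0.41 for Q20 against WT, the comparison in which Ndufb7 was called with the block.

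In NPC Q92 against Q20, chromosome 8 stood at -0.18, and Cox4i1, called in that comparison, had a value of -0.22 once the chromosome medians were taken out (limma adjusted p 0.246). Chromosome 11, which carries 5 members, stood at 0.34 and 0.30 in the Q111 libraries and at 0.14 in both Q20 libraries. Atp5g1 was still called for Q111 against Q20 without the chromosome median (0.99, limma adjusted p 0.0292). Over the whole comparison the same step gave 11 calls among the members in Q111 (27.5% of all genes) and 4 in Q92 (24.8%).

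**Figure D5:**
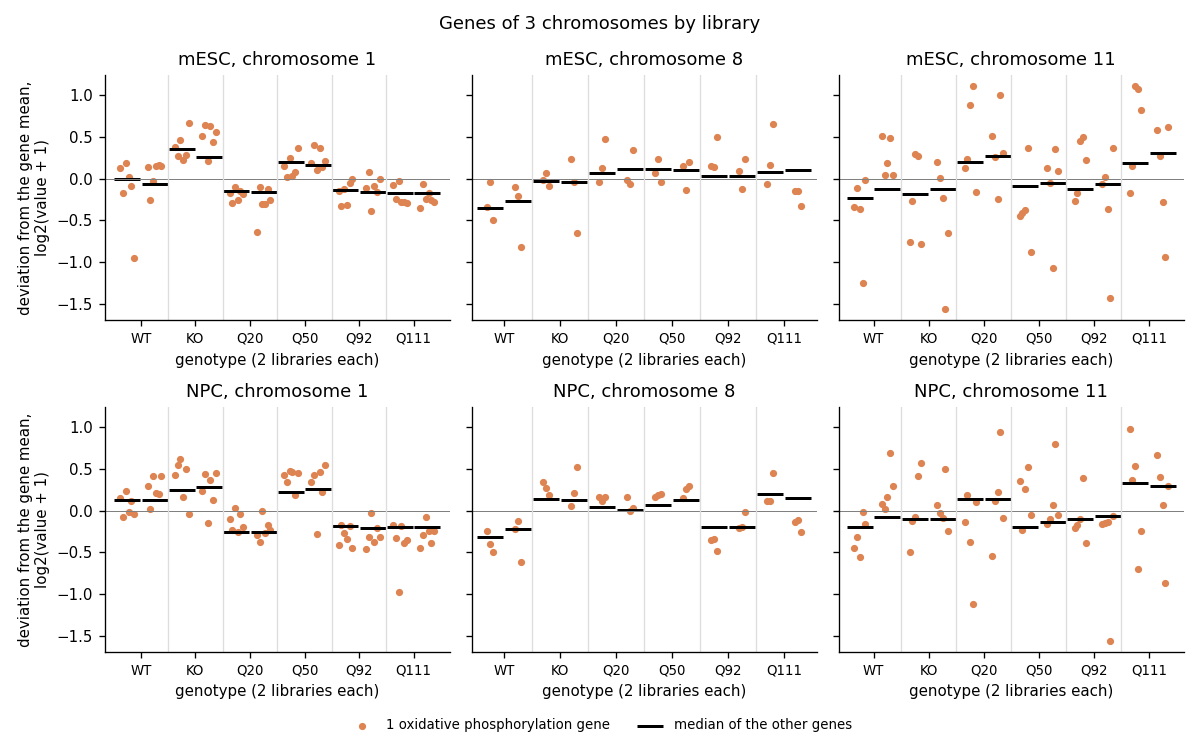
Deviation from the gene mean, in log2(value + 1), for genes of chromosomes 1, 8 and 11 in mESC (top) and NPC (bottom) by genotype, with 2 libraries each; orange points are single oxidative phosphorylation genes and black bars the medians of the other genes of the chromosome. On chromosome 1 both bars and points are high in KO and Q50 and low in Q20, Q92 and Q111, and on chromosome 8 both are low in WT.

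Over the 8 NPC knock-in libraries, 5 of 87 members changed with CAG length (22% of all genes tested), 4 rising (12%) and 1 falling (10.1%). Changes are given over the 91 repeats between 20 and 111. Ndufab1 rose by 0.83 (SE 0.16, limma adjusted p 0.0103), Ndufa5 by 0.91 (limma adjusted p 0.0326), and the assembly factors Ndufaf4 by 0.87 (limma adjusted p 0.0321) and Ndufaf6 by 0.72 (limma adjusted p 0.0441). Cox7a1 fell by 1.28 (limma adjusted p 0.0189). Ndufab1 kept its call in all 8 fits without 1 library, Cox7a1 in 6, Ndufa5 in 4, Ndufaf4 in 3 and Ndufaf6 in none. The replicate block ended the calls of Ndufa5 (adjusted p 0.0568), Ndufaf4 (0.0569) and Ndufaf6 (0.0791). Quantile normalization ended those of Ndufa5 (0.0569) and Cox7a1 (0.0802), and edgeR those of Ndufa5 (0.0562) and Ndufaf6 (0.0534). Ndufaf6 was also lost without a filter on low values (0.0633) and on the log2 of the repeat length (0.0741). The Ndufaf6 values were 10.3 and 8.62 in Q20, 9.48 and 9.27 in Q50, 15.4 and 14.6 in Q92 and 14.3 and 15.0 in Q111, which is a step between Q50 and Q92 and not a steady slope. With 1 mean value per line, 4 points in all, no member and no other gene was called (0%). Quantile normalization gave 11 calls (17.9% of all genes), 3 rising and 8 falling. In any pattern over the 4 lines, 13 members differed (41% of all genes), among them Cox7a1, Cox6b2, Ndufa5, Ndufs1, Ndufa10, Cox5b, Ndufv3, Sdhc, Atp5h and Atp5g1. With the chromosome medians taken out, 10 members were called (36.5% of all genes), not the same as those named. Ndufa5, Cox6b2 and Cox7a1 then had the smallest limma adjusted p values (0.00157, 0.00118 and 0.00074), and Ndufv3 kept its call (0.0262). Ndufs1 (0.102), Ndufa10 (0.269), Cox5b (0.151), Sdhc (0.254), Atp5h (0.688) and Atp5g1 (0.0666) lost it. Ndufa11 (0.0414) and Ndufa1 (0.0336) were among those called only after that step.

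Of 86 members tested in both cell types, 1 had a CAG slope that differed between them, where 4.86% of 12321 genes did (2.7% with the higher slope in NPC and 2.16% with the lower). Ndufaf2, an assembly factor for late steps of complex I, had a slope of -0.94 in mESC and 0.52 in NPC, neither called alone, and the difference was 1.46 (SE 0.38, limma adjusted p 0.0416). The call held in 5 of the 16 fits without 1 library (adjusted p up to 0.121), and with the chromosome medians taken out the adjusted p was 0.0677. In mESC it was 14.6 and 24.0 in Q20 and 8.99 and 11.5 in Q111, and in NPC 13.8 and 11.8 in Q20 and 19.5 and 17.6 in Q111. Its NPC WT libraries were 6.76 and 25.3 and its KO libraries 7.16 and 24.4. Each of these pairs spans more than the range over the knock-in lines.

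Isoforms of a subunit were compared by their share of the family's summed value per kilobase within a library. In NPC, Cox7a1 held 3.01% to 5.37% of Cox7a1 plus Cox7a2 in Q20 and 0.37% to 0.659% in Q92, and in mESC 5.27% to 14.6%. Cox6b2 held 2.95% and 3.71% of Cox6b1 plus Cox6b2 in NPC Q20 against 0.408% and 0.38% in Q111, and 3.58% to 18.3% in mESC. Their common partners Cox7a2 and Cox6b1 were not called in those comparisons. Atp5g1 held 27.7% and 24.5% of the 3 c-subunit genes in NPC Q111 and 11.8% to 20.03% in the other 10 libraries, while Atp5g2 held 32.9% and 34.2% in Q111 and 38.9% to 60.4% elsewhere. Ndufa4l2 held 6.14% to 22.6% of the Ndufa4 pair in the mESC libraries of replicate 1 and at most 1.92% in those of replicate 2. In NPC it did not pass the filter, at up to 0.725%. Cox4i1, Cox6a1, Cox7b and Cox8a made up over 90% of their families in every library.

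Some members switched between replicates of the same genotype by more than 2-fold. Among members with a mean of at least 5, 16 of 87 did so in at least 1 mESC genotype and 6 of 84 in at least 1 NPC genotype. Such switches were not counted over all genes, so these counts do not set the members apart. The median SD within a genotype was 0.24 for the members and 0.36 for all genes tested in mESC, and 0.20 against 0.25 in NPC. Ndufb11, an accessory subunit of complex I, did so in all 6 NPC genotypes, without a common direction: 77.6 and 36.5 in WT, 35.8 and 107 in KO, 109 and 30.7 in Q20, 63.4 and 31.2 in Q50, 28.2 and 64.4 in Q92 and 28.1 and 95.1 in Q111. Uqcr10, a small subunit of complex III, was 18.3 and 80.2 in NPC Q20 and 54.5 and 13.3 in Q92, and it switched in 4 mESC genotypes. Uqcrfs1, the Rieske protein of complex III, was 169 and 32.5 in mESC WT. Cox8a was 231 and 34.9 in mESC Q50.

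Other genes of the pathway were read from lists outside the naming rule. Of 39 further assembly factors tested in NPC, 2 were called in Q50 against Q20 (5.13%, against 18.8% of all genes: Cox20 and Nubpl), 3 in Q92 (7.69%, against 25.8%: Lrpprc, Timmdc1 and Acad9, all higher) and 2 in Q111 (5.13%, against 28.3%: Coa7 and Timmdc1, both higher). Of 5 other subunits and cytochrome c genes, Cyc1 and Cycs rose with CAG length in NPC. The mitochondrial ribosome had 15 of 78 genes higher in NPC Q111 against Q20 (19.2%) and 16 rising with CAG length (20.5%), with none lower in either. Of all genes, 12.2% were higher and 16.1% lower in that comparison, and 12% rose and 10.1% fell with CAG length. The cytosolic ribosome had 46 of 80 genes lower in NPC Q50 against Q20 (57.5%, against 10.7% of all genes) and none higher, with a median of -0.53, where the members had a median of 0.16. None of these lists was called in mESC for KO against WT or Q20 against WT.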

How the data were processed

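The submitters' processing notes name STAR, CASAVA 1.8 and the build GRCm38.p6; the counting tool, its use of strand and the gene filter are not given in the sources used here. The deposited values are a normalised signal that the authors named CPM. Column totals ran from 900342 to 1080734, and in each column every value (100%) equalled a whole number of reads, within 0.01 reads, times a constant of the library; these are the recovered reads. The first of repeated identifiers was used (4 in mESC, 1 in NPC). Log2(value + 1) was compared in limma 3.58.1 (R 4.3.3) with a variance trend, over all 12 libraries of a cell type, for genes with a value of at least 1 in at least 2 libraries: 13916 in mESC and 13206 in NPC. Tests were two-sided, p-values were Benjamini-Hochberg adjusted over all genes tested, and a gene was called at an adjusted p under 0.05. Fold changes on this scale understate those of low genes. For pairs of genotypes and for any difference among lines, the p-values rest on the spread between 2 samples per group, pooled over the groups. For slopes, the spread also holds departures of the lines from the slope, and libraries of the same line count as independent. The replicate test rests on the spread of the replicate difference over genotypes. The model was run on simulated counts that varied independently between libraries, with the same dispersion for every gene and no shift of whole chromosomes. That run does not cover the chromosome shifts or the wide mESC replicate difference seen here.

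Alternatives were a pseudocount of 0.1, no filter, a mean of at least 5, quantile normalization, edgeR 4.0.16 on the recovered reads, the replicate block, leaving out each library, only the libraries of both groups, and, for slopes, 1 mean per line, log2 length and 89 repeats for Q92. WT as the reference and removal of chromosome medians (chromosomes with at least 100 genes tested, members left out of the median) were added after seeing the data. The deviations of same-numbered mESC libraries correlated in all 15 pairs of genotypes (0.25 to 0.547), so numbers were taken to pair them; in NPC 3 of 15 pairs passed 0.1 (-0.0495 to 0.467), and they were not. That pairing comes from the data and not from the labels.

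Named genes were the complex II genes, isoforms with their common partners, up to 3 called members per complex and direction in each comparison, all members where 1 to 5 were called, and otherwise the 2 with the smallest p; switching genes and the chromosomes were chosen after their values were seen. The members and lists were chosen with earlier results of these data known. Positions and exon lengths came from GENCODE M21 (GRCm38), and promoters from RefSeq. Transcripts of 15 members shared over 10% of their 75-base stretches with another annotated gene on the same strand. Among those called in NPC were Cox5b, Ndufa12, Ndufab1 and Atp5h (36.5%). Ndufb4 (35.2%), Ndufs3 (27.1%), Cox7c (25.0%) and Cox6c (10.7%) were called between mESC replicates. The reads of all these genes are uncertain. Some results for single members are not reported here.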

Additional observations from a re-analysis of the deposited data

Results flagged for a closer look

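Ndufaf2 differed between the cell types in its slope on CAG length, which cannot be told apart from line. The NPC slope minus that of mESC came to 1.46 across 91 repeats (SE 0.38), with a limma adjusted p of 0.0416 for the interaction. The mESC slope was -0.94 and that of NPC 0.52. With the chromosome medians taken out the limma adjusted p was 0.0677, and with 1 mean value per line it was 0.363. Across all 12321 genes tested, 4.86% had such a call. The difference was the only member call of 86, and its call held in 5 of the 16 fits that left out 1 library.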

How the results depend on the processing

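Counts of called members that moved by over 1.5 times are given here by setting, with the share of all genes called in parentheses. For Q20 against WT in NPC, 2 calls (14.5%) became 1 with a pseudocount of 0.1 (13.4%), 0 with a mean of at least 5 (7.66%), 4 with quantile normalization (14.3%), and 0 with edgeR (11.4%) or with only the libraries of both groups (3.60%). For Q50 against Q20 in NPC, 7 (18.8%) became 16 with only both groups (29.7%), 3 without chromosome medians (16.7%) and 0 with WT as the reference (6.62%). For Q92, 5 (25.8%) became 2 with a mean of at least 5 (19.7%), 12 with quantile normalization (24.6%), 17 with only both groups (46.6%), 3 with the replicate block (27.0%) and 2 with WT as the reference (8.66%). For Q111, 8 (28.3%) became 18 with quantile normalization (27.1%) and 34 with only both groups (50.8%). For the NPC trend, 5 (22.0%) became 11 with quantile normalization (17.9%), 9 without chromosome medians (24.5%), 2 with the replicate block (15.3%) and 0 with 1 mean per line (0%). For the difference of slopes, 1 (4.86%) became 2 with quantile normalization (3.73%), edgeR (5.88%) or the replicate block (8.16%) and 0 with 1 mean per line (0%). In mESC the block gave 3 calls for Q20 against WT, 1 for Q50 against Q20 and 1 among the knock-in lines, and it moved no other member count in mESC. The causes were not tested. NPC numbers were not taken as paired.

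Leaving out 1 library gave 0 to 3 calls for KO and for Q20 against WT in NPC, 3 to 5 for Q50, 2 for Q92 in each fit, 3 to 4 for Q111, 1 to 6 for the trend, 7 to 10 among the lines, 0 to 1 for the difference of slopes and 22 to 31 between mESC replicates. A lone library left in a group was assumed to vary like the other groups. The share of all genes called in the fits that left out 1 library is not given here. These counts therefore do not show whether the members lost or gained calls more readily than other genes. The value of Cox7a1 in NPC Q50 turned from -0.64 to 0.0640 with WT as the reference. With 2 libraries a group, the median SE of a member was 0.25 in mESC and 0.19 in NPC pairs, which limits what could be called.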
